A study of Homo sapiens with 6 samples.

Results

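The HSP70 and HSP90 chaperones are described here through 10 human genes chosen by symbol, 7 of the HSP70 family (HSPA1A, HSPA1B, HSPA1L, HSPA4, HSPA5, HSPA8 and HSPA9) and 3 of the HSP90 family (HSP90AA1, HSP90AB1 and HSP90B1). Of these, 7 were in the table of translational efficiency, which held 8121 genes, and 8 were in the table of ribosome occupancy, which held 9570 transcripts. HSPA1L was in the occupancy table only, and HSPA1A and HSPA1B were in neither. The experiment was ribosome profiling of the embryonic kidney line HEK293, in which the stretches of mRNA protected by ribosomes (ribosome-protected fragments, RPFs) were sequenced in 3 replicates beside total RNA from each lysate. The sample labels give control siRNA for all 6 libraries, so there was 1 condition and no contrast between treatments. Living cells were treated briefly with cycloheximide, which holds elongating ribosomes on the mRNA, and were then washed and lysed in its presence. The part of this treatment in the values of single codons was not tested. Of the markers, 5 of 5 HEK293 genes (LIN28B, VIM, NEFM, INA and CKB) were in both tables, and 0 of 6 markers of leukocytes, hepatocytes or keratinocytes were in either. In total RNA INA was low, at 0.0924 times the median transcript, and the other HEK293 markers were at 5.50 to 47.1 times. Nothing in the labels says that the replicates came from separate cultures, so the spread and the p-values given here are those between these samples, which may be technical.

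HSP70 proteins bind short hydrophobic stretches of unfolded proteins through a substrate-binding domain, and an ATPase domain, joined to it by a short linker, drives binding and release. J-domain proteins start the ATPase cycle and nucleotide exchange factors end it. HSP90 proteins are dimers that take over partly folded clients, such as kinases and steroid receptors, from HSP70 with the help of co-chaperones. HSPA8 (HSC70) is the constitutive cytosolic HSP70, HSPA1A and HSPA1B encode the stress-inducible cytosolic form, and HSPA1L is their neighbour, known mainly from testis. HSPA5 (BiP) works in the endoplasmic reticulum, HSPA9 (mortalin) in mitochondria, and HSPA4 is an HSP110-type relative that acts as a nucleotide exchange factor. HSP90AA1 and HSP90AB1 are the inducible and the constitutive cytosolic HSP90, and HSP90B1 (GRP94) is the HSP90 of the endoplasmic reticulum.

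On the hg19 build (GRCh37), and with the transcripts of GENCODE 44 matched by CDS length, HSPA8 lies at chr11:122928197-122932497 on the minus strand, HSPA5 at chr9:127997132-128003622 (minus), HSPA9 at chr5:137889445-137911090 (minus) and HSPA4 at chr5:132387705-132442141 (plus). HSPA1L (chr6:31777396-31783060, minus), HSPA1A (chr6:31783320-31785719, plus) and HSPA1B (chr6:31795515-31798031, plus) are neighbours. HSP90AA1 lies at chr14:102547079-102553381 (minus), HSP90AB1 at chr6:44213903-44221625 (plus) and HSP90B1 at chr12:104324188-104341704 (plus). The proteins translated from these CDSs were identical between HSPA1A and HSPA1B over 641 of 641 residues, and HSPA1L shared 89.8% of aligned residues with HSPA1A. Identity was 86.3% between HSPA8 and HSPA1A, 65.9% between HSPA5 and HSPA8, 51.7% between HSPA9 and HSPA8, 34.9% between HSPA4 and HSPA8, 86.7% between HSP90AA1 and HSP90AB1, and 50.7% between HSP90B1 and HSP90AB1.

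The sequences that the profiles turned on are given first. Each is a window of 30 nt of mRNA, about the length of an RPF, with 12 nt before the codon and 15 nt after it, and the capitals mark the codon to which the occupancy value belongs. The highest codon of HSPA8, in the part that encodes the ATPase domain, is shown with its aligned counterparts in HSPA1L, HSPA1A and HSPA5.
HSPA8 codon 253: cataagaaggacATCagtgagaacaagaga
HSPA1L codon 255: cacaaaaaggacATCagccagaacaagcga
HSPA1A codon 253: cacaagaaggacATCagccagaacaagcga
HSPA5 codon 278: acgggcaaagatGTCaggaaagacaataga
These codons lie at chr11:122930542-122930544 (exon 5), chr6:31778985-31778987 (exon 2), chr6:31784290-31784292 (exon 1) and chr9:128001382-128001384 (exon 5), all in coding sequence.

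A glycine codon of the ATPase domain was above 5 times the CDS mean in HSPA5, HSPA8 and HSPA9, and the windows of HSPA5 and HSPA8 differed at 3 of 30 bases.
HSPA5 codon 188: accaaagacgctGGAactattgctggccta
HSPA8 codon 162: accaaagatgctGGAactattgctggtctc
HSPA9 codon 209: actaaagatgctGGCcagatatctggactg
Their positions are chr9:128001741-128001743 (exon 4), chr11:122930902-122930904 (exon 4) and chr5:137903233-137903235 (exon 7).

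The highest codon of HSPA5 lay in a window that differed from HSPA1L and from HSPA1A at 1 base each.
HSPA5 codon 55: gagatcatcgccAACgatcagggcaaccgc
HSPA1L codon 33: gagatcatcgccAACgaccagggcaaccgc
HSPA1A codon 31: gagatcatcgccAACgaccagggcaaccgc
These lie at chr9:128003144-128003146 (exon 2), chr6:31779651-31779653 (exon 2) and chr6:31783624-31783626 (exon 1).

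In the HSP90 family the highest codon of HSP90AB1 is shown with its counterpart in HSP90AA1, from which its window differed at 6 bases.
HSP90AB1 codon 279: aaatacattgatCAGgaagaactaaacaag
HSP90AA1 codon 287: aagtacatcgatCAAgaagagctcaacaaa
They lie at chr6:44218214-44218216 (exon 6) and chr14:102551138-102551140 (exon 5). The highest codons of the other members are shown because no aligned codon of a paralog was above 5 times its CDS mean.
HSPA9 codon 131: cgatatgatgatCCTgaagtacagaaagac
HSPA4 codon 723: aaggaggaccagTATgatcatttggatgct
HSP90AA1 codon 454: cacgaagactctCAAaatcggaagaagctt
HSP90B1 codon 661: aacatggagagaATCatgaaagcacaagcg
These are at chr5:137906666-137906668 (exon 4), chr5:132439566-132439568 (exon 18), chr14:102550007-102550009 (exon 8) and chr12:104337606-104337608 (exon 14).

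Translational efficiency, or RPFs over total RNA of a gene, was above the median of all genes for 7 of 7 members measured, a call that 44.7% of all genes received in the same test (limma, FDR 0.05). HSPA5, the chaperone of the endoplasmic reticulum, had values of 8.71, 9.22 and 10.2 in replicates 1 to 3, with a mean of 9.36 ± 0.734 (SD, n = 3) and rank 92 of 8121 genes. HSP90AA1 gave 4.42, 4.16 and 4.55, with a mean of 4.38 ± 0.201. HSP90B1 gave 3.14, 2.75 and 3.22, with a mean of 3.04 ± 0.249. No replicate value overlapped between these 3 mRNAs. HSP90AB1 followed with 1.90, 1.93 and 2.15 (mean 1.99 ± 0.141). HSPA9 had 1.90, 1.86 and 1.84 (mean 1.87 ± 0.0268). HSPA4 had 1.75, 1.65 and 1.73 (mean 1.71 ± 0.0555). The ranges of HSP90AB1 and HSPA9 overlapped, and the difference of their means was 0.123, below the SD of HSP90AB1. HSPA8, the constitutive cytosolic HSP70, was lowest of the members at 1.32, 1.10 and 1.29 (mean 1.24 ± 0.118, rank 1253), and its values did not reach those of HSPA4.

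The median of all genes was 0.385 and the upper quartile 0.825, so each of the 21 values of the members lay above the upper quartile. On the scale of log2(value + 0.01), HSPA5 was 4.57 (SE 0.0629) above the median of all values, with an adjusted p of 1.06e-06 in limma, and HSPA8 was 1.66 (SE 0.0701) above it, with an adjusted p of 1.23e-05, the largest among the members. HSP90AA1, HSP90B1 and HSP90AB1 were 3.48, 2.95 and 2.35 above it, and HSPA9 and HSPA4 were 2.26 and 2.13 above it. Of all genes, 44.7% were called higher and 44.6% lower, so a call alone says little, and the members are described by their sizes. Between neighbours in the order, the ratio of mean efficiencies was 2.14 from HSPA5 to HSP90AA1, 1.44 from HSP90AA1 to HSP90B1, 1.52 from HSP90B1 to HSP90AB1, 1.09 from HSPA9 to HSPA4 and 1.38 from HSPA4 to HSPA8.

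**Figure D1:**
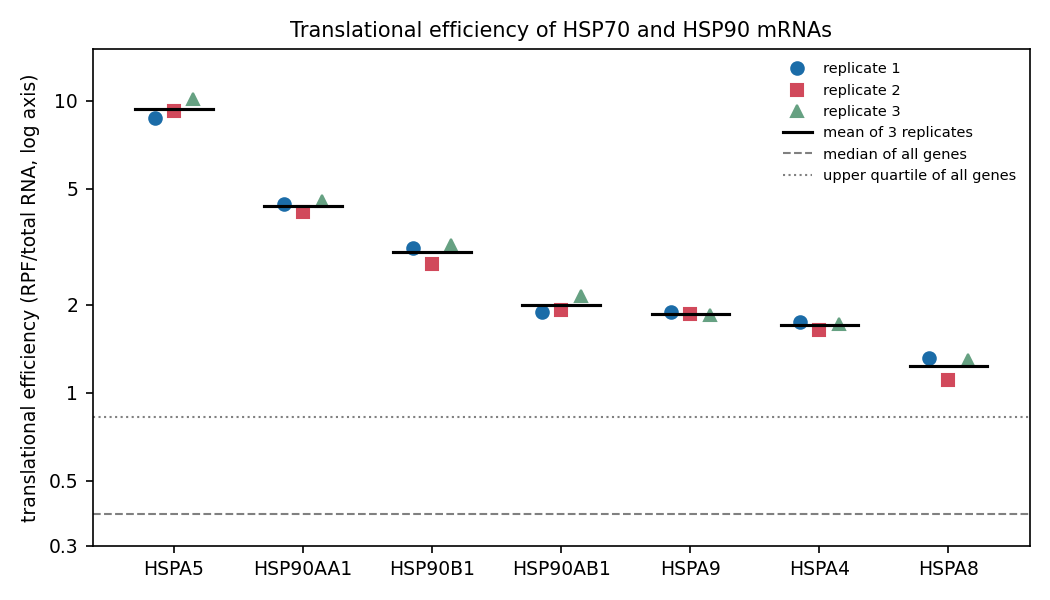
Translational efficiency (linear RPF/total RNA ratio on a log axis) of the 7 chaperone mRNAs in each of 3 replicates, with black bars for the mean, a dashed line at the median of all genes (0.385) and a dotted line at their upper quartile (0.825). HSPA5 sits at 8.71 to 10.2 and HSPA8 at 1.10 to 1.32, and only HSP90AB1 and HSPA9 overlap among neighbours.

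Relatives and partners outside the 10 genes were spread more widely, and their lists were chosen with earlier results of these data known. Of 7 other family genes found, 5 were above the median of all genes, 1 was below it and 1 passed neither way. HSPA2, an HSP70 gene without introns known from testis, had 3.05 ± 0.718. Of the ribosome occupancy of HSPA2, 91.9% lay in windows within 2 mismatches of HSPA1A or HSPA1B, and the part of such windows in its efficiency was not tested. HSPA13, of microsomes, had 1.99 ± 0.165. HSPA14, a ribosome-associated HSP70, had 1.26 ± 0.0259. HSPH1 (HSP110) had 0.777 ± 0.0131 and its relative HSPA4L 0.541 ± 0.00673. TRAP1, the mitochondrial HSP90, had 0.383 ± 0.00205 and was not separated from the median (adjusted p = 0.967, limma), whereas the lowest replicate value of HSP90B1 and both cytosolic HSP90 mRNAs was 1.90. HSPA12A, a distant HSP70 relative, was below the median at 0.210 ± 0.0132.

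J-domain partners were above the median in 11 of 12 cases and below it in 1, from SEC63 of the endoplasmic reticulum translocon (7.23 ± 1.49) to DNAJB1, a cytosolic partner of HSPA8 and HSPA1A (0.297 ± 0.0270, log2 difference -0.36). Nucleotide exchange factors of HSP70 were divided, 4 above and 4 below of 9, from BAG2 (8.49 ± 0.453) to BAG1 (0.0573 ± 0.00357). HSP90 co-chaperones were above in 11 and below in 7 of 19, from PTGES3 (p23, 4.13 ± 0.338) to FKBP8, an immunophilin of the mitochondrial surface (0.0368 ± 0.00173). The 5 small heat shock, chaperonin and heat shock factor genes found were all above, from HSPE1, the mitochondrial chaperonin partner (4.10 ± 0.160), to HSPB1 (HSP27, 0.593 ± 0.176). Over these lists 36 of 52 genes were above and 13 below, against 44.7% and 44.6% of all genes, and their median efficiency was 0.858, against 1.99 for the 7 chaperones.

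In the occupancy table each codon has an RPF count normalised for library size and divided by the TPM of the transcript, with the replicates combined. The values of the 8 chaperone transcripts were sums of whole multiples of 3 small steps, each the worth of 1 read in 1 replicate, so the reads behind each of their codons could be recovered. Of 5208 values above 0 in the 8 chaperone transcripts, 5206 had exactly 1 solution in whole reads and 2, both in HSP90AB1, had several. Steps carry no replicate number and were not matched to the replicates. The 3 replicates are therefore unnumbered in what follows, and the mean of their values is the deposited value. The reads in frame in the CDS were 453681 for HSP90AA1, 295355 for HSP90AB1, 282345 for HSPA8, 92542 for HSP90B1, 76602 for HSPA9, 73569 for HSPA1L, 69278 for HSPA5 and 57452 for HSPA4, or from 68.3 reads per codon in HSPA4 to 619 in HSP90AA1. Codon profiles of the 3 replicates correlated within each CDS with Pearson coefficients of 0.947 to 0.993, over codons of the same transcript, which are not independent. By estimated reads HSP90AA1 ranked 3, HSP90AB1 9 and HSPA8 13 of 9551 transcripts.

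The steps also give the TPM of each mRNA relative to the median transcript. HSPA8 was at 56.6 times the median, HSP90AA1 at 32.8, HSP90AB1 at 24.6, HSPA9 at 14.0, HSP90B1 at 8.99, HSPA4 at 7.38 and HSPA5 at 3.91. HSPA1L was at 0.0853 times the median, rank 9111 of 9551. These are levels per length averaged over a culture, in which fewer expressing cells and less mRNA per cell cannot be told apart. The most abundant of the 7 mRNAs with a translational efficiency (HSPA8) had the lowest efficiency, and the least abundant (HSPA5) had the highest. Both measures have total RNA in them, and their order over 7 genes is only a description.

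Mean CDS occupancy, which is RPFs per codon and per TPM, put HSPA1L far above the others. Its 3 replicate values were 13.9, 17.7 and 12.6 (mean 14.7 ± 2.68), rank 5 of 9570 transcripts, against a median transcript of 0.0450. HSPA5 had 0.282, 0.353 and 0.262 (mean 0.299 ± 0.0475, rank 223). HSP90AA1 had 0.222, 0.194 and 0.206 (mean 0.207 ± 0.0144, rank 440). The values of HSP90AA1 and HSPA5 did not overlap. HSP90AB1 had 0.205, 0.170 and 0.169 (mean 0.181 ± 0.0204, rank 545), which overlapped those of HSP90AA1. HSP90B1 had 0.154, 0.128 and 0.139 (mean 0.140 ± 0.0131), below every value of HSP90AB1.

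HSPA4 (0.104, 0.0973 and 0.102, mean 0.101 ± 0.00353), HSPA9 (0.0897, 0.0892 and 0.0862, mean 0.0884 ± 0.00192) and HSPA8 (0.0848, 0.0766 and 0.0902, mean 0.0839 ± 0.00685) followed. The ranges of HSPA9 and HSPA8 overlapped, and those of HSPA4 and HSPA9 did not. HSPA5 and HSP90AA1 led, and HSPA8 came last, in both translational efficiency and occupancy, while HSP90B1 and HSP90AB1 exchanged places, as did HSPA9 and HSPA4. These places turned with the measure. With unshared windows only, HSPA9 (0.0803) came below HSPA8 (0.0852), and with the median over codons HSP90B1 (0.0621) came above HSP90AB1 (0.0524). Each of the 8 lay above the upper quartile of all transcripts, 0.0780, in its mean over replicates.

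**Figure D2:**
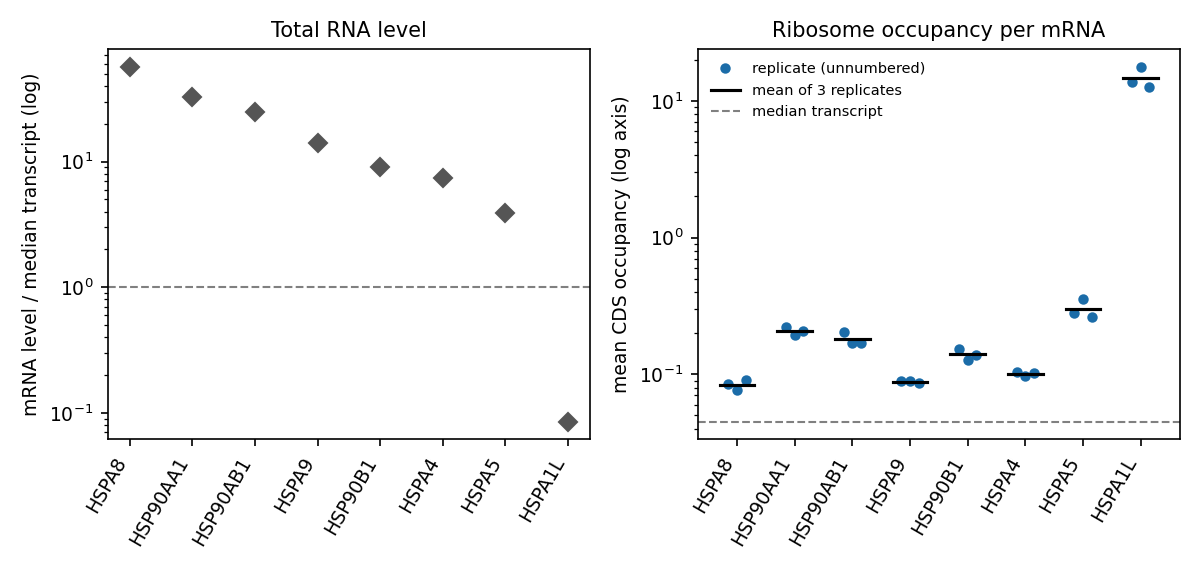
Left, total RNA level of the 8 chaperone mRNAs as a multiple of the median transcript (log axis, 1 value each). Right, mean occupancy per codon of the CDS (log axis) in the 3 unnumbered replicates (points) with their mean (bars) and the median transcript (dashed, 0.0450). HSPA1L has the lowest mRNA level, 0.0853, and the highest occupancy, 14.7.

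The occupancy of HSPA1L lay almost wholly in sequence that is close to HSPA1A and HSPA1B. Of its 642 codons, 382 had no read, and its 5′UTR and 3′UTR held 6 and 0 reads beside 73569 in the CDS. Codon 255, shown above, was at 122 times the CDS mean (118, 118 and 132 in the replicates, 13868 reads), and codon 254 before it at 39.7 times (37.1, 36.0 and 47.9). Codon 511 was at 30.9 times the mean, with 29.8, 27.0 and 37.8 in the replicates. Each of these 3 windows differed from HSPA1A by 1 base.

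Over the whole CDS, 171 of 642 codons (26.6%) had a window within 2 mismatches of HSPA1A or HSPA1B, and these held 97.0% of the occupancy (96.6 to 97.6% in the replicates). Exact windows were 40 and held 17.8% of it. The 72 windows with 1 mismatch held 64.9%, and the 59 with 2 mismatches held 14.3%. Windows with 3 mismatches numbered 39 and held 2.41%. The 432 windows with 4 or more mismatches, 67.3% of the CDS, held 0.611%, and 337 of those codons were at 0. Mean occupancy was 44.7 in windows within 3 mismatches and 0.134 beyond. The latter rests on 458 reads in all and on few codons, since the median of the class was 0 and its highest codon, 484, was at 26.8. Of 78 codons above the CDS mean, 77 lay within 3 mismatches of HSPA1A or HSPA1B. The sources used here do not give how reads that matched more than 1 transcript were assigned, and the part of such reads in the occupancy of HSPA1L was not tested.

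HSPA2, the other family gene with little total RNA (0.0816 times the median transcript), ranked 6 of 9570 in mean CDS occupancy at 6.74, next to HSPA1L. In HSPA2 89 of 640 codons (13.9%) lay within 2 mismatches of HSPA1A or HSPA1B and held 91.9% of the occupancy. In the members with abundant mRNA the share of occupancy in such codons was lower. HSPA5 had 6 of 655 (0.916%), which held 5.81% of its occupancy and included its highest codon, 55. HSPA8 had 1 of 647 with 0.199%, and HSPA9 and HSPA4 had 0. Between the HSP90 genes, 3 codons each of HSP90AA1 and HSP90AB1 were within 2 mismatches of the other and held 0.941% and 0.927% of the occupancy.

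**Figure D3:**
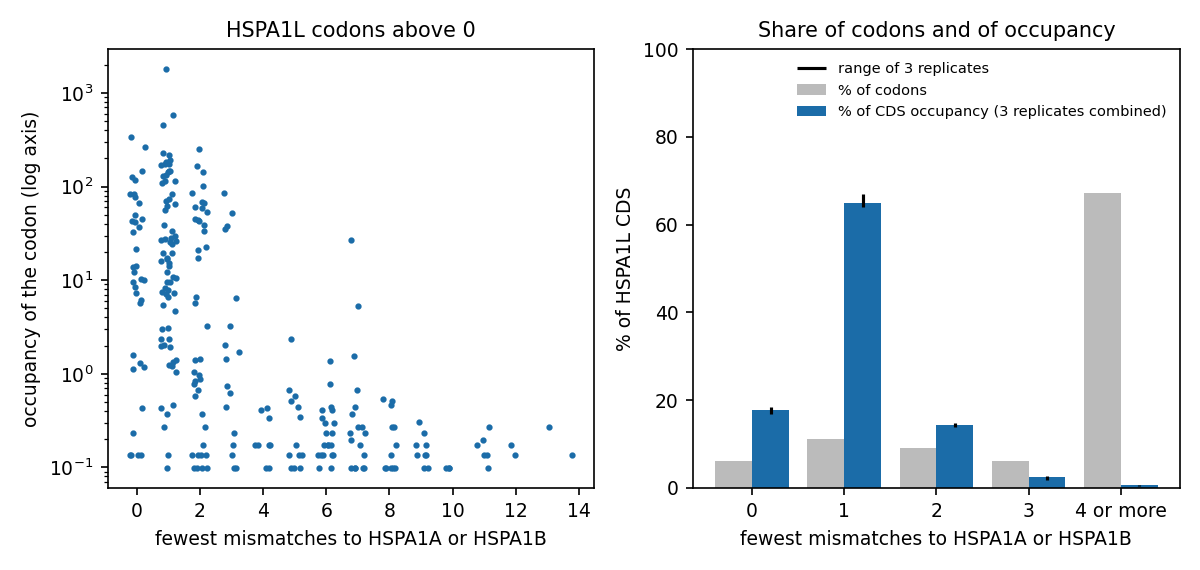
Left, occupancy (log axis) of the 260 HSPA1L codons above 0 against the fewest mismatches of their window to HSPA1A or HSPA1B, 1 point per codon with sideways jitter. Right, the share of codons (grey) and of CDS occupancy (blue, black line for the range of the 3 replicates) in each class. Windows with 1 mismatch hold 64.9% of the occupancy and those with 4 or more hold 0.611%.

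Exact windows shared with other genes were common in members with processed pseudogenes. HSPA4 had 0 of 841 windows in a transcript of another gene. HSPA9 had 173 of 680, HSP90B1 236 of 804, HSPA5 219 of 655, HSPA8 345 of 647, HSP90AB1 370 of 725 and HSP90AA1 431 of 733. The gene that shared most was a pseudogene in these cases, such as HSPA5P1 (149 windows), HSPA8P1 (135), HSPA9P1 (170) and HSP90AA2P (310). For HSPA1A, 607 of 642 windows were in another gene, and for HSPA1B 617 of 642. Occupancy in shared over unshared windows was 0.728 in HSP90AA1 (0.726 to 0.730 in the replicates) and 0.786 in HSP90B1 (0.770 to 0.802). It was 0.970 in HSPA8 and 1.15 in HSPA5. In HSP90AB1 it was 1.18, and in HSPA9 1.40 (1.37 to 1.42). Shared windows were therefore lower in 3 of these 6 members and higher in 3, and whether the pseudogenes were in the authors' transcriptome is not given.

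Along the CDS the 8 chaperones were uneven, each in a pattern that returned in all 3 replicates. HSPA9 had its highest codon at 131 (CCT), at 26.2 times the CDS mean (24.6 to 28.3 in the replicates, 2971 reads), and a further peak at codon 596 (ATG, 20.4 times, 16.0 to 22.7). HSP90AB1 reached 25.1 times at codon 279 (23.3 to 28.1, 10266 reads), with 16.8 times at codon 302 and 12.9 times at codon 190. HSPA5 reached 24.6 times at codon 55 (22.7 to 27.2) and 22.2 times at codon 188 (21.6 to 23.5), then 10.3 times at codon 613.

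HSPA8 had lower peaks, with 16.0 times at codon 253 (15.3 to 16.6), 14.1 at codon 354 and 13.5 at codon 575. HSPA4 had 15.6 times at codon 723 (14.7 to 17.2), 11.7 at codon 27 and 11.4 at codon 114. HSP90B1 had 14.5 times at codon 661, 10.6 at codon 256 and 9.21 at codon 66. HSP90AA1 had the lowest peak of the 8, with 10.1 times at codon 454, 9.73 at codon 448 and 9.38 at codon 481. By the share of occupancy in the top 10 codons, HSP90B1 and HSP90AA1 were lowest, both at 10.4%. Among 1693 transcripts of 600 to 900 codons the median height of the highest codon was 24.9 times the mean and the 5th percentile 14.3, so the highest codon of HSP90AA1 was below that percentile and that of HSPA1L, at 122, was above the 95th (66.2). HSP90AA1 was also the deepest member, and the part of depth in this was not tested. Codons without a read were 2.05% in HSP90AA1, 59.5% in HSPA1L and 4.14 to 8.53% in the other 6, against a median of 50.2% in transcripts of this length. Estimated reads were from 55720 in HSPA4 to 441828 in HSP90AA1, against 1819 in the median of all transcripts. The part of depth in these shares was not tested. The 24 codons named for the 8 mRNAs, 3 each, were of 20 kinds, and ATC and GGA occurred 3 times each.

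**Figure D4:**
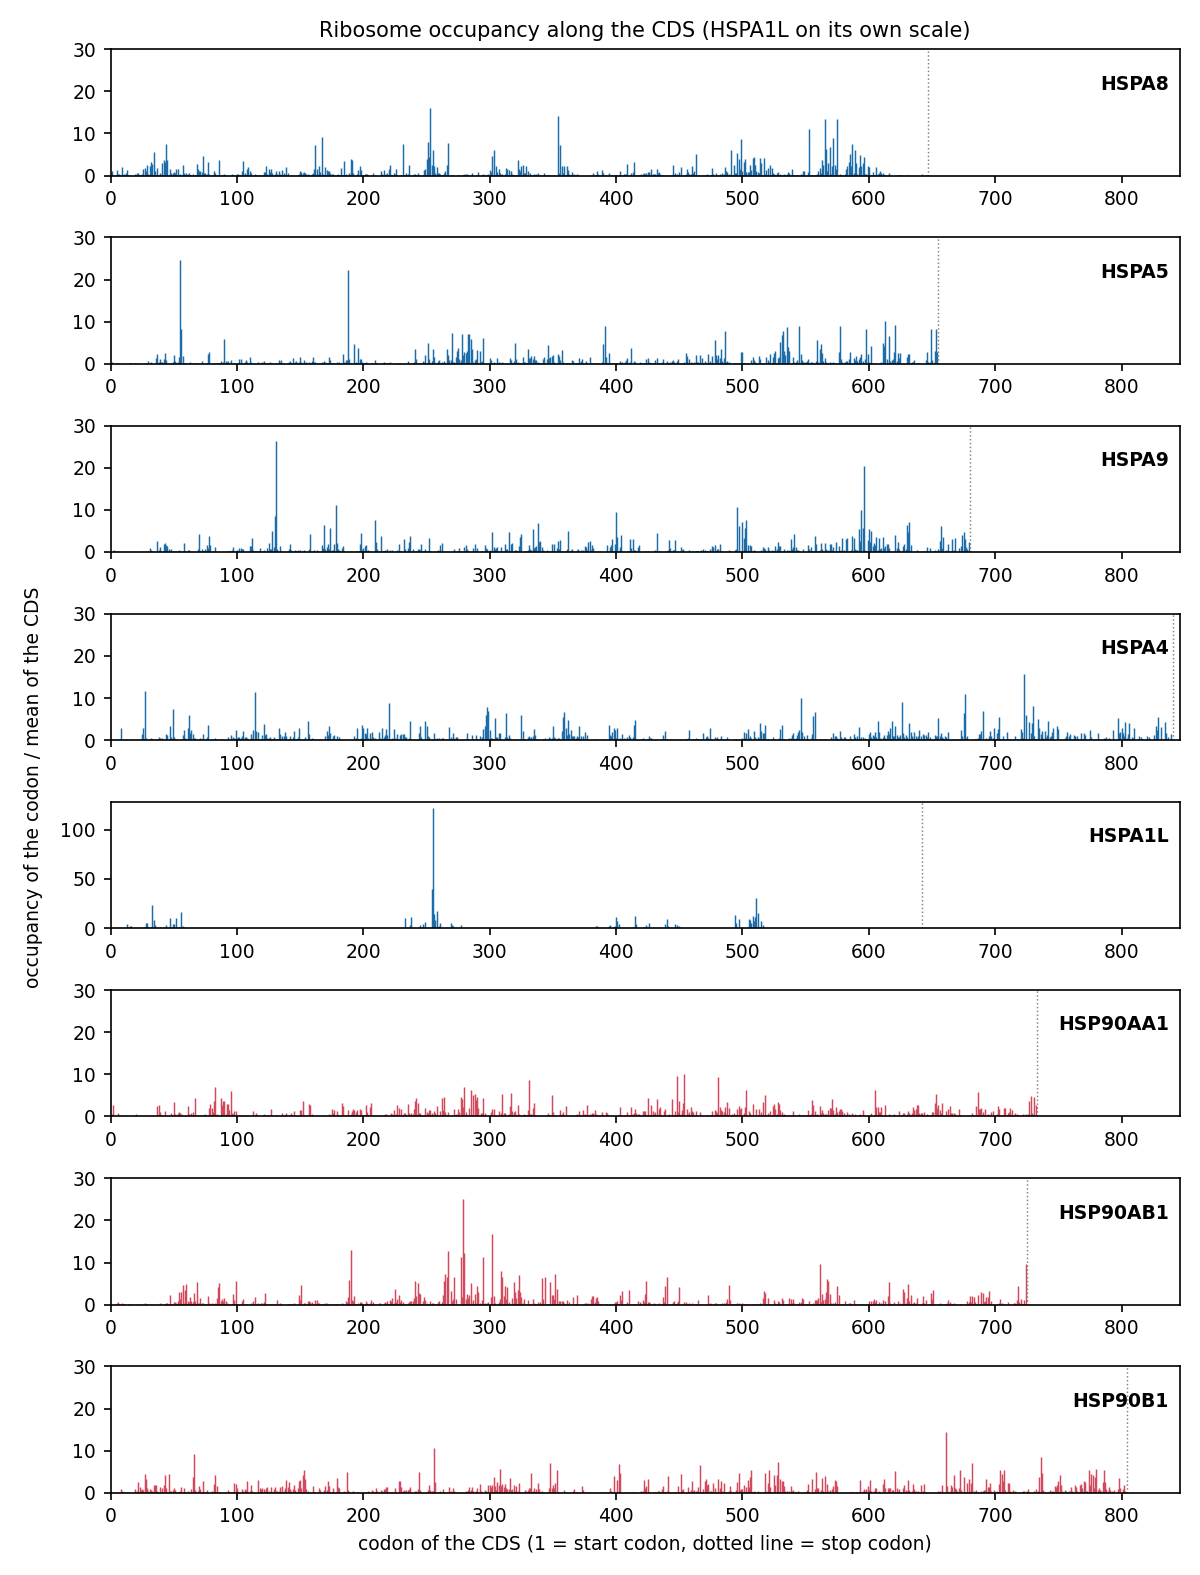
Occupancy of each codon divided by the mean of its CDS, in 8 panels (HSP70 members in blue, HSP90 members in red), against codon number, with a dotted line at the stop codon. All panels run from 0 to 30 except HSPA1L, which reaches 122 at codon 255 and is at or near 0 over long stretches.

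Codons that align between paralogs were compared, without the first 15 and last 5 codons of each CDS. Between HSPA8 and HSPA5 the occupancy of 607 aligned codons had a Spearman coefficient of 0.341, and 0.332 over the 601 codons whose windows differed at more than 3 bases. Between HSP90AA1 and HSP90AB1 it was 0.359 over 704 codons and 0.341 over 674. HSP90AA1 with HSP90B1 gave 0.260, HSPA8 with HSPA9 0.205 and HSPA5 with HSPA9 0.141. The pairs with HSPA4 ranged from -0.0744 to 0.160. These coefficients are descriptions across codons, which share libraries, amino acids and base composition.

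Aligned codons above 5 times the CDS mean in both members numbered 9 in HSP90AA1 and HSP90AB1, out of 18 and 32 such codons, and all 9 lay in windows that differed at more than 3 bases. Codon 279 of HSP90AB1, at 25.1 times, aligned with codon 287 of HSP90AA1 at 5.02 times (4.22 to 5.99). Its counterpart in HSP90B1, codon 333, was at 4.64 times (4.33 to 5.32). Codon 448 of HSP90AA1 (9.73 times) aligned with codon 440 of HSP90AB1 (6.51 times), both GGA. The highest codon of HSP90AA1, 454, was not among the 9. Codon 190 of HSP90AB1, at 12.9 times, aligned with codon 256 of HSP90B1 at 10.6 times.

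In the HSP70 family the glycine codon at position 188 of HSPA5, at 22.2 times, aligned with codon 162 of HSPA8 at 7.17 times (6.38 to 7.92) and codon 209 of HSPA9 at 7.64 times (5.47 to 9.45). The aligned codon was at 0.323 times in HSPA4 and at 0.0277 times in HSPA1L, on 3 reads. The windows of HSPA5 and HSPA9 differed at 10 bases. Codon 253 of HSPA8, at 16.0 times, aligned with codon 255 of HSPA1L at 122 times and with codon 278 of HSPA5 at 6.99 times (5.97 to 8.53), with 14 bases different between HSPA8 and HSPA5. It was at 1.60 times in HSPA4 and 0.631 times in HSPA9. Codon 613 of HSPA5 (10.3 times) aligned with codon 589 of HSPA8 (6.08 times). In a separate alignment codon 589 of HSPA8 was paired with codon 630 of HSPA9 (6.40 times). Codons 613 of HSPA5 and 630 of HSPA9 were not paired in the alignment of those members, where the 1 shared peak was 188 with 209.

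Of the codons just named, 255 of HSPA1L lay in a window 1 mismatch from HSPA1A. The window of codon 55 of HSPA5 was also 1 mismatch from HSPA1A, and 1 from HSPA1L. The aligned codon 33 of HSPA1L was at 23.2 times its mean (20.4 to 26.0), codon 31 of HSPA8, 5 bases different, was at 2.33 times (1.86 to 2.61), and codon 80 of HSPA9 at 0.0124 times. Without windows within 2 mismatches of a family gene, the highest codon of HSPA5 was 188. In HSP90B1 the window of its highest codon, 661, was 2 mismatches from HSP90AA1, and outside such windows the highest was codon 256. The highest codons of HSPA4, HSPA8, HSPA9, HSP90AA1 and HSP90AB1 were the same with and without such windows. Pseudogenes were not among the family genes of this comparison. The exact window of the highest codon also occurred in HSPA8P1 for HSPA8, HSP90AB2P for HSP90AB1, HSPA5P1 for HSPA5 and HSP90B2P for HSP90B1. For HSPA4, HSPA9 and HSP90AA1 it occurred in no other gene. The part of pseudogenes in these peaks was not tested.

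**Figure D5:**
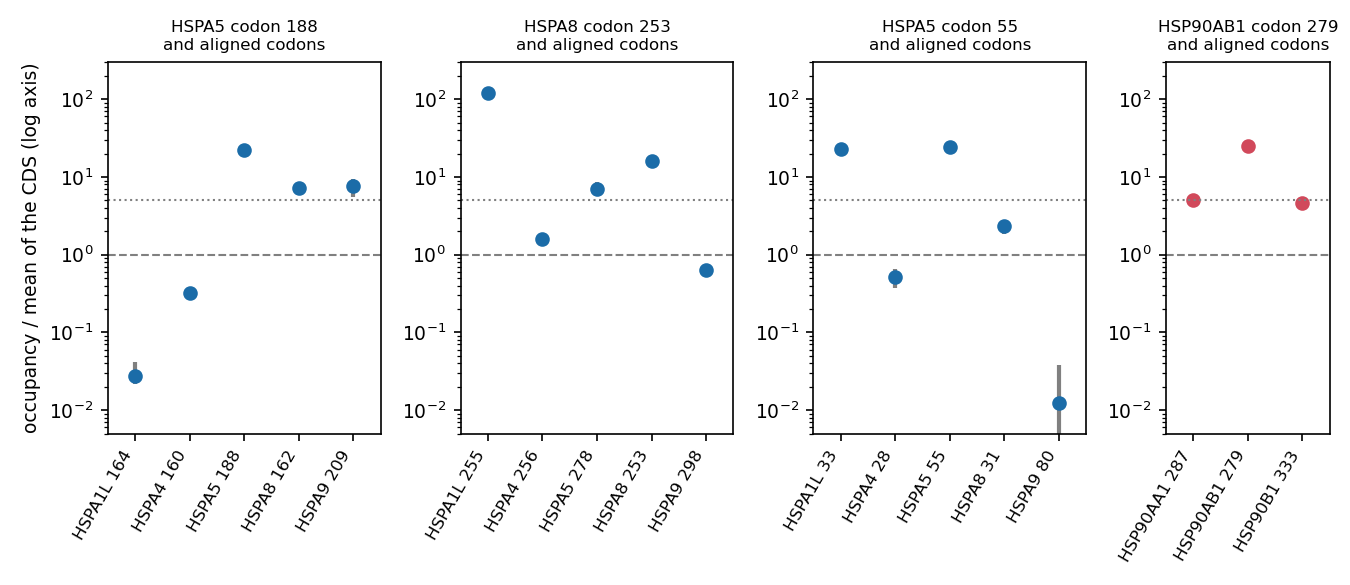
Occupancy over the CDS mean (log axis) at 4 codons and the codons aligned with them in the other family members, as points for the combined value and grey lines for the range of the 3 replicates. The dashed line is the CDS mean and the dotted line 5 times the mean. The first panel shows HSPA5, HSPA8 and HSPA9 above the dotted line, and the third shows HSPA5 and HSPA1L level with each other at 24.6 and 23.2.

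The balance between the start and the end of the CDS differed among the chaperones. Occupancy after the midpoint over that before it was 1.41 ± 0.0825 in HSPA5 (SD of 3 replicates), 1.38 ± 0.0167 in HSPA9 and 1.31 ± 0.0416 in HSP90B1. It was 1.11 ± 0.0142 in HSP90AA1, 1.10 ± 0.0118 in HSPA8 and 1.09 ± 0.0305 in HSPA4. HSP90AB1 was weighted to the front, at 0.588 ± 0.0155, and HSPA1L was at 0.650 ± 0.0193. Of all transcripts the middle 50% lay between 0.704 and 1.34, so over all codons HSPA5, HSPA9, HSP90AB1 and HSPA1L lay outside that range and the other 4 within it. HSPA5 (1.31) and HSPA9 (1.34, at the limit) came inside it without the first 15 and last 5 codons, and the replicates of HSPA5 (1.32 to 1.48) already spanned the limit. HSP90AB1 came inside it, at 0.719, without the 1% of codons with the highest values. The range itself was over all codons and was not taken again under these settings, so these placings are not like for like. The ranges of HSP90AA1 (1.10 to 1.13) and HSP90AB1 (0.570 to 0.600) did not overlap, although their proteins share 86.7% of residues. In HSP90AB1 the excess lay in codons 220 to 292 (2.33 times the CDS mean) and 293 to 365 (1.94 times), when the CDS was cut into 10 equal segments. The same segments of HSP90AA1 were at 1.66 times (codons 223 to 295) and 0.908 times (296 to 368). HSPA8 moved to 0.995 and HSPA1L to 1.21 without the 1% of codons with the highest values.

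In the HSP70 members the CDS can be divided at the linker between the ATPase domain and the substrate-binding domain, found by a script in the translated sequences of 4 members. Occupancy after the linker over that before it was 1.54 ± 0.0831 in HSPA5 (linker at codons 413 to 418), 1.53 ± 0.0148 in HSPA9 (434 to 439) and 1.23 ± 0.0208 in HSPA8 (390 to 395). In HSPA1L it was 0.974 ± 0.0123. The linker itself had a lower mean occupancy than the part before it in the 3 abundant mRNAs. It was 0.0636 in HSPA5 against 0.252, 0.0209 in HSPA8 against 0.0775, and 0.00996 in HSPA9 against 0.0751. In HSPA1L it was 17.1 against 14.9. These are means of a few codons without values by replicate, set against means that rest on high codons. The median codon of the whole CDS was at 0.0946 in HSPA5, 0.0279 in HSPA8 and 0.0288 in HSPA9. The sequence searched for was not found in HSPA4.

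The first 75 codons were below the CDS mean in 6 of 8 members. HSPA9, whose N-terminus is the mitochondrial targeting sequence, had 0.385 ± 0.0105 times its mean there, HSP90AA1 0.489 ± 0.0103 and HSP90AB1 0.637 ± 0.0160. HSPA5 had 0.739 ± 0.0734, HSPA4 0.826 ± 0.0389 and HSP90B1 0.936 ± 0.0287. HSPA8 was at 1.12 ± 0.0366 and HSPA1L at 1.59 ± 0.0713. Over all transcripts the median was 0.911, with the lower quartile at 0.584, so HSPA9 and HSP90AA1 were below that quartile.

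At the start codon HSPA8 had 1.19 ± 0.350 times its CDS mean, HSP90AA1 0.537 ± 0.162 and HSPA5 0.446 ± 0.144, whereas HSP90B1 had 0.0623 ± 0.0431 and HSPA9 0.0296 ± 0.0264. HSPA4, HSP90AB1 and HSPA1L had no read there. The median of all transcripts was 0.286. At the last sense codon HSP90AB1 stood at 9.68 times its mean in the combined values, HSP90AA1 at 2.72, HSPA5 at 2.69 and HSPA9 at 2.41. HSP90B1 was at 0.462, HSPA8 at 0.0959 and HSPA4 at 0.0371. The upper quartile of all transcripts was 0.745 and the 95th percentile 4.52, and HSP90AB1 alone among the members was above the latter.

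Little occupancy lay outside the CDS. In-frame 5′UTR values were 0.468% ± 0.0964 of the summed occupancy in HSPA5, 0.365% ± 0.0215 in HSP90B1 and 0.264% ± 0.0420 in HSPA4. HSPA8 had 0.117% ± 0.0287, HSPA9 0.0698% ± 0.00450 and HSP90AA1 0.0237% ± 0.00305. The median transcript had 0.364%. In HSPA8 85.3% of the 5′UTR occupancy, 282 of 334 reads, lay in the codon next to the start codon, whereas in HSPA5 the highest 5′UTR codon, 14 codons before the start, held 11.5%, and 44 of 83 codons had a read. In HSP90B1 the highest lay 8 codons before the start with 103 of 335 reads, at 0.876 times the CDS mean. The 56 in-frame 5′UTR codons of HSP90AB1 and its codons 1 to 3 held 0 reads beside 295355 in its CDS, while codons 1 to 3 of HSP90AA1 held 1981. The 3′UTRs held from 0 reads in HSPA1L to 16 in HSP90AA1.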

How the data were processed

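RPFs and total RNA were sequenced from the lysates of 3 replicates of HEK293 cells. The authors trimmed reads (Cutadapt), collapsed PCR duplicates (cd-hit-dup), mapped RPFs with bowtie to transcripts of hg19, kept lengths from 28 to 30 nt, shifted each read by 13 nt, and took the most abundant transcript of each gene. For total RNA the methods name Hisat2 and the submitters' processing notes TopHat2 2.1.1, beside cutadapt 1.16, Bowtie 1.1.2 and HTSeq 0.9.1. The deposited translational efficiency is a linear ratio, RPFs over total RNA, for each gene and replicate. The sources used here do not give its formula. Occupancy per codon, as deposited, is an in-frame RPF count that the authors normalised for library size and divided by TPM, with replicates combined. The paper gives the number of mapped RPFs of 28 to 30 nt for each replicate. It gives no depth for the total RNA libraries, and the recovered reads give the depth of single transcripts. For 31 transcripts, none of them a member, the values of the CDS ran over several lines and were joined again.

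For translational efficiency, limma (version 3.58.1, R 4.3.3) compared the log2(value + 0.01) of each gene with the overall median. Genes were not filtered, and the FDR was held at 0.05 by the Benjamini-Hochberg method. The test was checked on simulated data, as was the recovery of reads. Steps were found for 9551 transcripts (99.8%), and a value was solved when whole reads gave it within a tolerance of at most 1e-09 on the read number. Occupancy per replicate had been planned as not measurable and became so through this recovery. RPF and total RNA of a replicate come from 1 lysate, so the ratio holds the pairing.

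Sequences come from GENCODE 44 lifted to GRCh37, matched by symbol and CDS length, and their 5′UTRs can differ from those of the authors' transcripts. A window was called shared when it occurred in a transcript of another gene. Proteins were aligned with Biopython 1.88 (BLOSUM62, gap costs 11 and 1), and scipy 1.17.1, pandas 2.3.3 and numpy 2.4.6 were run under Python 3.11.15. The named genes were all members, every relative found, the highest and lowest gene of each partner list and the top 3 codons of each CDS. Aligned, linker and segment values were added after the data were seen, and so was HSPA2 in the comparison of windows. The members and the lists were chosen with earlier results of these data known.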

Additional observations from a re-analysis of the deposited data

How the results depend on the processing

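The 7 members measured stayed above the median of all genes under pseudocounts of 0.1 and 0.001, with only genes at 0.05 or more in each replicate, under the replicate block, which takes out the median of each replicate (7 of 7), and without each replicate (7 to 7), and adjusted p in limma ranged from 4.52e-07 to 0.000145. Genes above the median numbered 3645, 3630 and 3574 under the first 3 settings, 3639 under the replicate block and 3528 to 3552 without a replicate, and genes below it 3634, 3613, 3554, 3626 and 3470 to 3539. The block changed no call of a member. With a pseudocount of 0.1 the differences from the median were smaller, from 1.47 (HSPA8) to 4.29 (HSPA5) on the log2 scale. Taking the median over codons in place of the mean moved occupancy to 0 for HSPA1L, 0.0420 for HSPA4, 0.0946 for HSPA5, 0.0279 for HSPA8, 0.0288 for HSPA9, 0.0937 for HSP90AA1, 0.0524 for HSP90AB1 and 0.0621 for HSP90B1. Each mean thus rests in part on high codons. The same held over all transcripts, where the median was 0.00717 for the median over codons and 0.0450 for the mean. With unshared windows only it moved to 0.0803 for HSPA9 and 0.247 for HSP90AA1. Without the first 15 and last 5 codons the ratio across the midpoint moved to 1.31 for HSPA5, 1.08 for HSPA8, 1.34 for HSPA9, 1.09 for HSP90AA1 and 0.558 for HSP90AB1. Without the 1% of codons with the highest values it reversed for HSPA1L (1.21) and HSPA8 (0.995) and moved to 1.51 for HSPA5, 1.44 for HSPA9 and 0.719 for HSP90AB1. For HSPA1L that setting takes away codons 254, 255 and 511 among others, and for HSPA8 the cause was not tested. Without the 5 codons next to the start codon the 5′UTR percentage moved to 0.0162 for HSPA8, 0.0313 for HSPA9, 0.0116 for HSP90AA1 and 0.336 for HSP90B1. The other occupancy values moved by less than 1 SD, and the efficiencies kept their direction and their side of the threshold. With 1 condition and 3 replicates, nothing here compares treatments. Total RNA is in both measures, so an error in the total RNA of a member can move them together.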
